A study of Homo sapiens with 24 samples.

Results

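The bile acid and drug transporters of the hepatocyte were followed here through 9 genes: SLC10A1, SLCO1B1, SLCO1B3, SLC51A, SLC51B, ABCB4, ABCB11, ABCC2 and ABCC3. Their probes were found as those whose RefSeq transcript belongs to 1 of these genes, which made them 9 of the 20503 genes that the array names through RefSeq. Each gene had 1 probe, except ABCC3, which had 2.

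Hepatocytes take bile acids and organic anions from the blood across their basolateral membrane and secrete bile acids, phospholipids and drug conjugates across the canalicular membrane into bile. SLC10A1 and the SLCO1B carriers serve uptake, ABCB11, ABCB4 and ABCC2 serve canalicular secretion, and the paired subunits SLC51A and SLC51B, with ABCC3, return bile acids and conjugates to the blood. Differentiated hepatocytes express most of these genes strongly, and liver cells that lose their differentiated state tend to lose them.

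The study asked which genes respond to Wnt3a in HepaRG cells, a human liver progenitor line derived from a hepatocellular carcinoma, and which responses need beta-catenin or are blocked by FZD8_CRD, the extracellular Wnt-binding domain of the receptor Frizzled 8. RNA was measured on 24 one-colour arrays, 3 for each of 8 conditions. The untreated, Wnt3a, FZD8_CRD, and FZD8_CRD + Wnt3a cells were not transfected, while the control siRNA and beta-catenin siRNA cells were electroporated with 80 pmol of siRNA and were measured with and without Wnt3a. Recombinant mouse Wnt3a was given at 200 ng/ml and mouse FZD8_CRD at 300 ng/ml for 72 h, the stimulated cells in serum-free medium with albumin. Control siRNA against untreated therefore compares electroporated with untransfected cells.

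Levels are given as the log2 of a probe's signal over the 75th percentile of its array, so that 0 is the 75th percentile and a difference of 1 is a 2-fold change. Signals under the detection floor, a log2 level of -6.13 or 1.43% of the 75th percentile, were set to that floor. Between 58.3% and 66.5% of the probes on an array were well above background, the scanner software's own call of a signal over its local background. Testing required a probe with this call in each of the 3 replicates of some condition, which 24647 genes met, 7 of the 9 transporters among them. A gene is called higher or lower at an adjusted p under 0.05 by limma, a two-sided test with one mean per condition over all 24 arrays, adjusted by Benjamini-Hochberg over the 24647 genes. The 3 replicates of a condition came from separate culture experiments, and their number limits the precision of every value. Replicates with the same number shared a slide, each slide held all 8 conditions, and a condition had the same position on every slide, so position and condition cannot be told apart.

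Array 3 of FZD8_CRD stood apart from its group. Over all genes tested, each centred on its mean, its mean correlation was 0.15 with the other FZD8_CRD arrays and 0.67 with the FZD8_CRD + Wnt3a arrays, against 0.34 and 0.41 with their own condition for FZD8_CRD arrays 1 and 2. Whether this array was mislabelled or exchanged with another was not tested, so calls that use it are given with and without it. The 3 Wnt3a arrays and array 3 of beta-catenin siRNA + Wnt3a were also nearer to another condition than to their own, with own correlations of 0.38, 0.11, 0.15 and 0.26 against 0.56, 0.25, 0.52 and 0.35.

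The labels were checked on genes outside the transporters. CTNNB1, which encodes beta-catenin, fell from a mean of 3.41 to 0.38 after its siRNA without Wnt3a (adjusted p 1.15e-09) and from 3.56 to 0.54 with Wnt3a (adjusted p 7.62e-10), on 3 of 3 slides each. The Wnt target RNF43 rose with Wnt3a in untransfected cells by 0.73 (adjusted p 0.00054) and after control siRNA by 1.02 (adjusted p 9.76e-05), and was lower with FZD8_CRD by -1.30 without Wnt3a (adjusted p 9.18e-08) and by -1.23 with it (adjusted p 2.3e-07). RNF43 also rose with Wnt3a in the presence of FZD8_CRD, by 0.81 (adjusted p 0.000216), and each of these differences had its direction on 3 of 3 slides. The rise in untransfected cells was lost in 3 of 20 alternatives, among them spike-in scaling (0.34, adjusted p 0.388, in a range from 0.000196) and the compared conditions alone, and the rise with FZD8_CRD in 4 of 20 (adjusted p 1.9e-05 to 0.332). Without FZD8_CRD array 3, RNF43 was lower with FZD8_CRD by -1.35 and rose with Wnt3a beside FZD8_CRD by 0.86. With all arrays, the Wnt3a response of RNF43 with FZD8_CRD minus that in untransfected cells was 0.07. This was not called (adjusted p 0.945). After beta-catenin siRNA its Wnt3a difference was -0.21 and was not called (adjusted p 0.493), and the interaction against control siRNA was -1.23 (adjusted p 0.00129, called in 23 of 26 alternatives). AXIN2 after control siRNA rose with Wnt3a by 0.60, with an adjusted p of 0.00662 that became 0.0517 without control siRNA + Wnt3a array 2 and 0.0563 without control siRNA array 3, and was lost with spike-in scaling (0.525, the highest of a range from 0.00263). In untransfected cells AXIN2 rose by 0.37 (adjusted p 0.0453), a call kept in 6 of 20 alternatives, with a sign that changed under spike-in scaling (-0.03). It was lost without untreated array 1 (0.41, adjusted p 0.0761), array 2 (0.40, 0.0893) or array 3 (0.28, 0.109) and without Wnt3a array 1 (0.31, 0.127) or array 2 (0.41, 0.111), in a range of 0.02 to 0.946. AXIN2 was lower with FZD8_CRD by -0.60 without Wnt3a (adjusted p 0.000118) and by -0.84 with it (adjusted p 6.68e-06). Both were called in 20 of 20 alternatives. Beta-catenin siRNA lowered AXIN2 by -0.74 with Wnt3a (adjusted p 7.92e-05, 19 of 20) but left it uncalled without (0.11, adjusted p 0.616). ZNRF3 was lower after beta-catenin siRNA, by -0.50 without Wnt3a (adjusted p 0.000836) and by -0.64 with it (adjusted p 4.98e-05), calls that spike-in scaling ended. NKD1 averaged -6.13, the floor, in every condition except Wnt3a and control siRNA + Wnt3a, and LGR5 was well above background on no array.

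**Figure D1:**
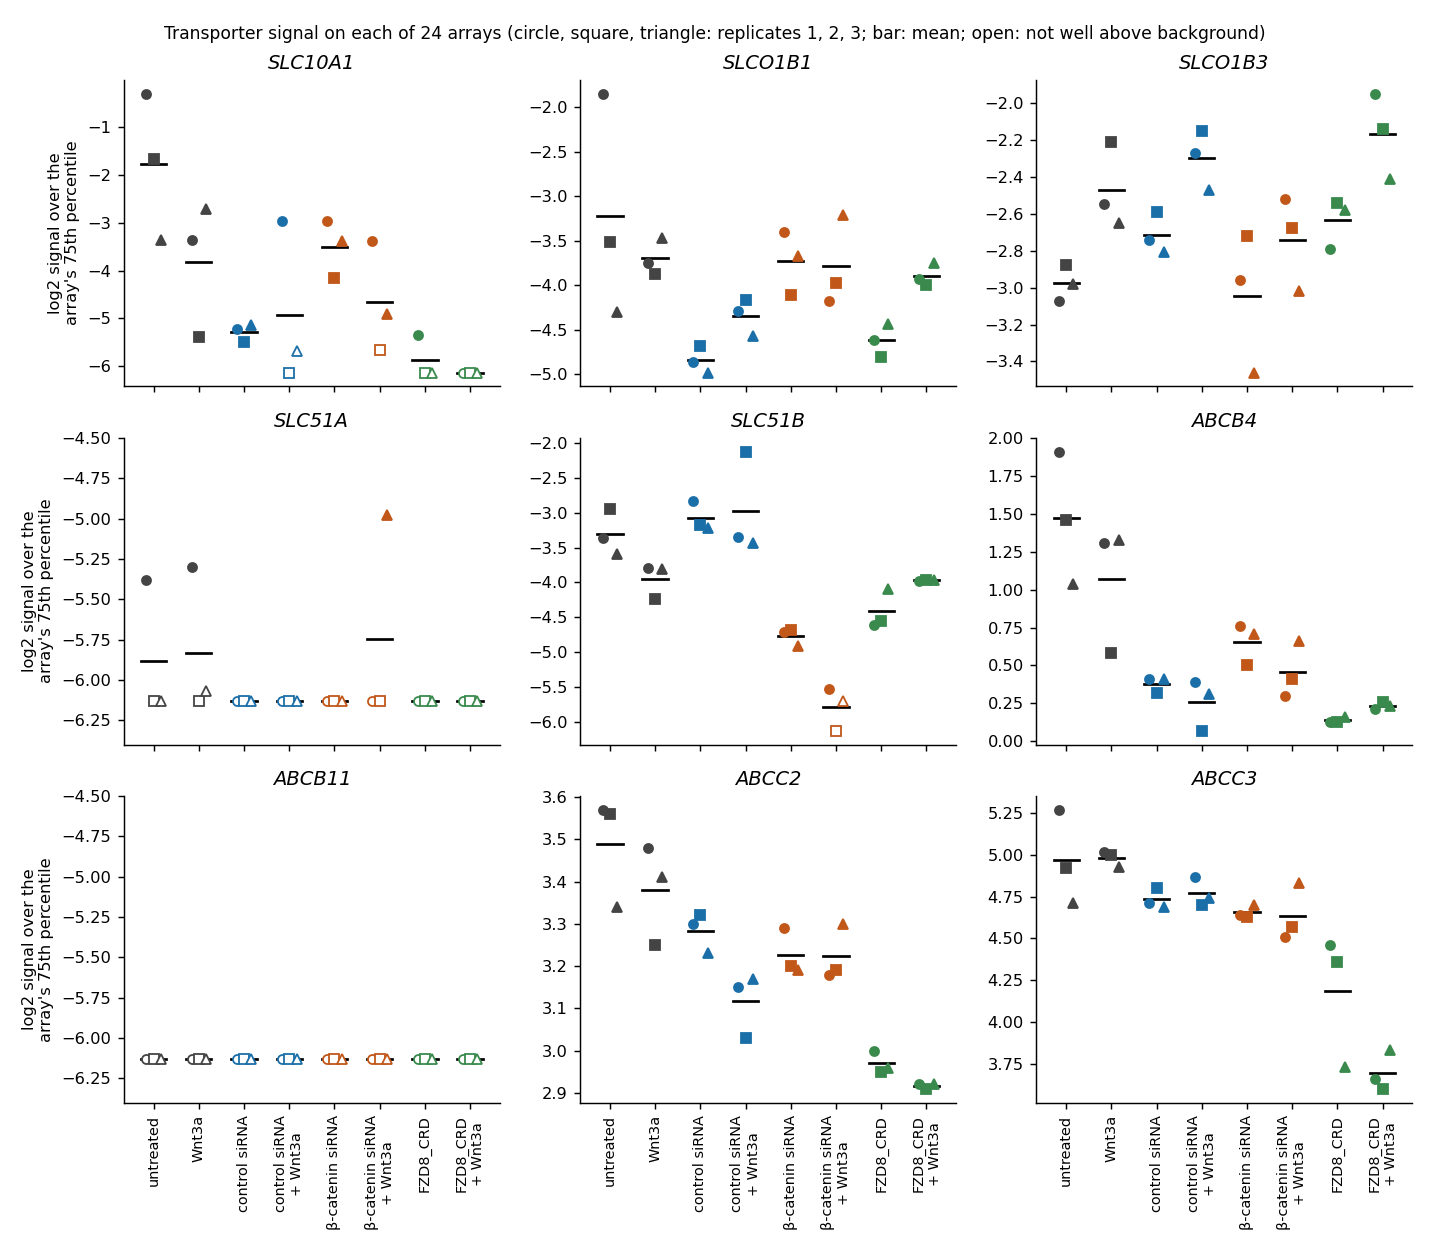
Level of each transporter on each of 24 arrays, as log2 of signal over the array's 75th percentile, by condition; circles, squares and triangles are replicates 1, 2 and 3, bars are means of 3, and open symbols were not well above background. SLC10A1 and ABCB4 were highest in untreated cells, with means of -1.77 and 1.47, SLC51B was lowest after beta-catenin siRNA with Wnt3a at -5.79, and ABCB11 lay at the floor of -6.13 throughout.

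Most of the transporters' called differences lay in the comparisons of FZD8_CRD and of transfection, and few in those of Wnt3a. FZD8_CRD without Wnt3a, set against untreated cells, had 6 of the 7 tested transporters lower, where 22.2% of all genes were lower, and 0 higher, where 19.7% were higher. The median change of the 7 was -1.12 beside -0.09 over all genes, and without FZD8_CRD array 3 the 6 were still called, beside 20.4% of all genes lower and 20.2% higher. With arrays scaled to spike-in probes, 27.5% of all genes were lower and 2.24% higher. With Wnt3a in both groups, FZD8_CRD had 4 transporters lower, where 18.9% of genes were lower, and 0 higher, where 18.2% were, with medians of -0.46 and -0.08. This 4 was 3 without Wnt3a array 1 or 3 or any 1 of the FZD8_CRD + Wnt3a arrays, where 13.9% to 19.2% of all genes were lower and 14.2% to 17.2% higher. The 6 and the 4 both include ABCC3 by its probe A_23_P207507. Its other probe, A_33_P3298024, was called in neither comparison by limma (-0.03 and -0.05, adjusted p 0.843 and 0.76). Control siRNA against untreated cells gave 4 lower and 0 higher, beside 10.1% and 12.3% of all genes, with medians of -0.24 and -0.03, and the 4 became 3 without untreated array 1 or 2 or any 1 of the control siRNA arrays, beside 5.55% to 7.89% of all genes lower and 8.13% to 11% higher. With Wnt3a in both groups, control siRNA gave 2 lower and 1 higher, beside 3.59% and 5.44%, with medians of -0.26 and -0.02. That count of 3 became 0 without Wnt3a array 1 (0.45% of all genes lower, 0.649% higher) and 0 without control siRNA + Wnt3a array 2 (0.605% and 0.807%). It became 1 without Wnt3a array 3 (2.11% and 3.26%) and 2 without Wnt3a array 2 (6.63% and 9.79%). Control siRNA and FZD8_CRD share their untreated and Wnt3a arrays as the reference, so a high or low reference array enters both.

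Beta-catenin siRNA against control siRNA had 1 transporter lower without Wnt3a, where 6.17% of genes were lower, and 0 higher, where 4.4% were higher, with medians of -0.06 and -0.03. Counted in either direction, 3 were called with the compared conditions alone, where 9.7% of genes were lower and 7.83% higher. At an unadjusted p under 0.01 by limma with a fold over 1.5 or under 0.7, the 2 called were SLC51B (lower) and SLCO1B1 (higher). There 3.77% of genes were lower and 1.89% higher. With Wnt3a, beta-catenin siRNA again had 1 lower, where 6.5% of genes were, and 0 higher, where 4.08% were, with medians of 0.10 and -0.01. With the replicate number as a block in limma that count was 2, where 9.52% of all genes were lower and 6.09% higher. Wnt3a in untransfected cells had 0 called higher and 0 lower by limma, beside 2.99% and 2.61% of all genes, although 4 of the 7 had an unadjusted p under 0.05. Their median was -0.39 beside 0.01 over all genes, and the count became 2 without untreated array 3, where 4.53% of genes were higher and 6.85% lower, and 2 with the replicate block, where 6.09% were higher and 5.36% lower. After control siRNA, Wnt3a gave 0 higher and 0 lower by limma, beside 1.09% and 1.02%, with 2 at an unadjusted p under 0.05 and medians of 0.10 and 0.02. After beta-catenin siRNA it gave 0 and 0, beside 0.0365% and 0.00406%, with 1 at an unadjusted p under 0.05 by limma and medians of -0.06 and 0.03. In the presence of FZD8_CRD, Wnt3a gave 1 lower and 0 higher, beside 3.94% and 4.36%, with medians of 0.09 and 0.02. This last count was 1 lower and 1 higher with the replicate block (6.52% of all genes lower, 6.86% higher), SLCO1B3 being the higher. It was still 1 lower without FZD8_CRD array 3 (11.3% lower, 8.69% higher). Without any other of the 6 arrays compared it was 0 (0.511% to 1.92% lower, 0.901% to 3.06% higher).

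The difference between 2 Wnt3a responses was tested as an interaction. For beta-catenin siRNA minus control siRNA 0 transporters were called by limma, where 0.0162% of genes were, and 1 had an unadjusted p under 0.05. For FZD8_CRD minus untransfected cells 0 were called by limma, where 0.073% of genes were, with 3 at an unadjusted p under 0.05, and the count became 1 without FZD8_CRD array 3, where 3.24% of genes were positive and 4.52% negative. For control siRNA minus untransfected cells 0 were called, where 0% of genes were, and 1 had an unadjusted p under 0.05 by limma.

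**Figure D2:**
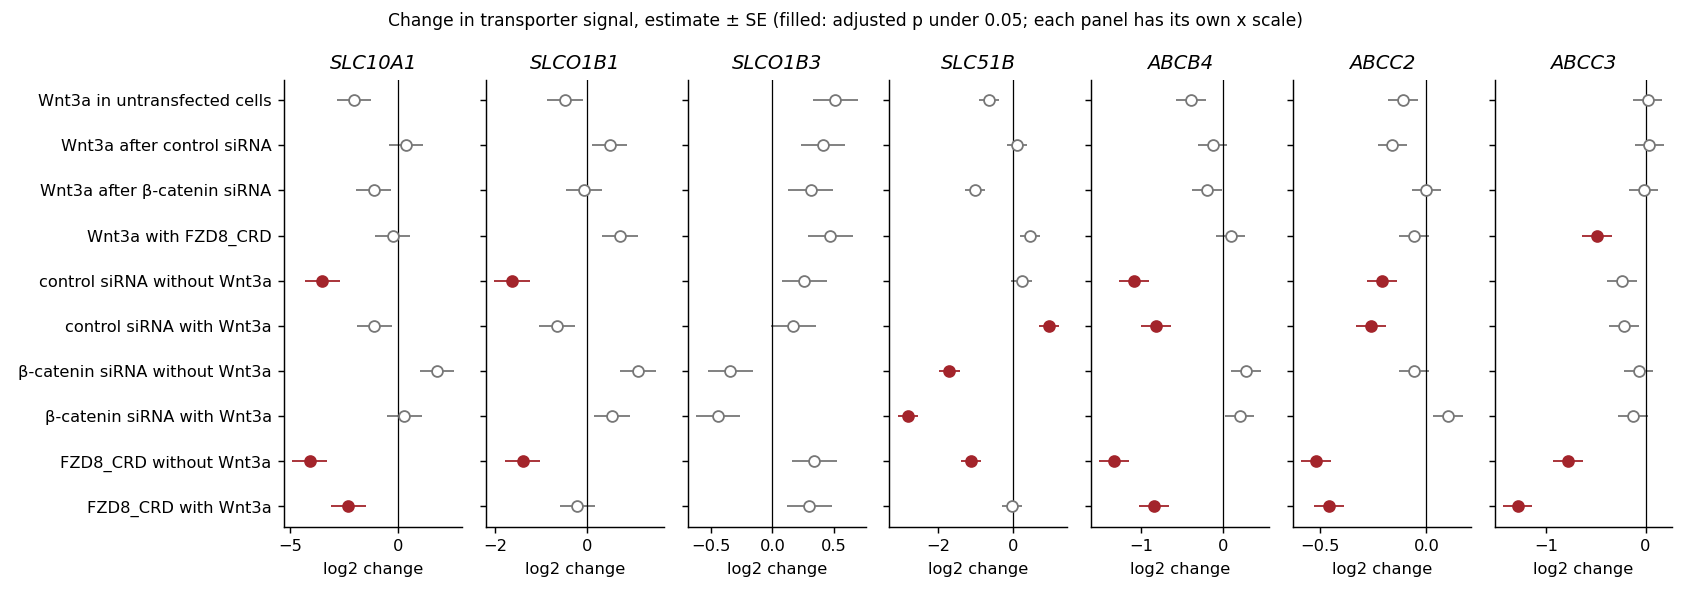
Change of the 7 tested transporters in the 10 pairwise comparisons, as log2 difference of means of 3 arrays with its standard error; filled red points have an adjusted p under 0.05, and each panel has its own x scale. ABCB4 and ABCC2 were lower in both comparisons of control siRNA and both of FZD8_CRD, although ABCC2 after control siRNA with Wnt3a changed sign, to 0.01, when arrays were scaled to their spike-in probes. SLC51B was lower by -1.70 after beta-catenin siRNA without Wnt3a. With Wnt3a it was also called lower, but that point rests on arrays not well above background and is not an exact size.

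SLC10A1, also called NTCP, takes up conjugated bile acids together with sodium. Its promoter, with that of SLC51B, is shown because these genes differed most between conditions, and capitals mark a motif found by letter. AGGTCA is the core motif of nuclear receptors, among them the bile acid receptor NR1H4. Each sequence runs 5′ to 3′ from 250 bases before the start of the gene to 50 after it, from RefSeq on build GRCh38.p14, at chr14:69797192-69797491 on the minus strand for SLC10A1 and chr15:65045137-65045436 on the plus strand for SLC51B.
SLC10A1: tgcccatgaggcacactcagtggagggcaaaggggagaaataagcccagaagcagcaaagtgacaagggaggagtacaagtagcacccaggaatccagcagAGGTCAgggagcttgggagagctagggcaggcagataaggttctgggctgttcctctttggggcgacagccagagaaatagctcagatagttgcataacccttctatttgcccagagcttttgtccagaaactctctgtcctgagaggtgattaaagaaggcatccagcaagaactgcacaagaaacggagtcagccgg
SLC51B: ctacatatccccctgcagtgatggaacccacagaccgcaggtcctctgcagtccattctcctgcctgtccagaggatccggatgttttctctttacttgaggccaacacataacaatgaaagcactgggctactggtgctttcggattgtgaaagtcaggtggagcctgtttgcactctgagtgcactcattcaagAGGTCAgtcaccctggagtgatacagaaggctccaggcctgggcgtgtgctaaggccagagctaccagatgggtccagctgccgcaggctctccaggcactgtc

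RefSeq promoters were matched for 7 of the 9 transporters, ABCB4 and ABCC3 having no entry. Both strands were searched, and 13.8% of 35116 promoters of the same length held AGGTCA. It lay 149 bases before the start in SLC10A1, 54 before it in SLC51B and, on the opposite strand, 76 before it in SLCO1B3. CTTTGAT and CTTTGAA, spellings of the site bound by the TCF partners of beta-catenin, were in 2.62% and 4.43% of promoters and in 0 of the 7. GTTAAT, also searched, was in 6.88% of promoters and in 2 of the 7. It lay 61 bases before the start in SLCO1B3, and in SLCO1B1 51 before it and, on the opposite strand, 172 before it. These matches describe the letters of the window and do not show that a factor binds there.

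SLC10A1 in untreated cells read -0.30, -1.66 and -3.35 on arrays 1 to 3, a mean of -1.77 ± 1.53 (SD, n = 3). The 3 arrays after control siRNA read -5.22, -5.50 and -5.14 (mean -5.29 ± 0.19). With FZD8_CRD only array 1 was measured above background, at -5.35, and the other two lay at the floor (mean -5.87 ± 0.45). The untreated arrays were thus spread over more than either other group, yet neither of those reached the lowest of them. Control siRNA was lower than untreated by -3.51 ± 0.80 (SE), 11.4-fold, with an adjusted p of 0.00335 and differences of -4.92, -3.84 and -1.79 within slides 1 to 3. It was called in 17 of 19 alternatives, and lost without replicate 1 of every condition (-2.81, adjusted p 0.0708) and without replicate 2 (-3.35, 0.0507), in a range from 0.000379. FZD8_CRD was called lower (adjusted p 0.000352), also without FZD8_CRD array 3 (adjusted p 0.00185). The difference was -5.05 on slide 1, the only one measured above background in both groups. On slides 2 and 3 FZD8_CRD was set to the floor, so no fold or mean difference is given. The FZD8_CRD call held under each of 19 alternatives, with adjusted p between 2.46e-05 and 0.0121. A bulk array cannot tell fewer cells of a type from less RNA per cell, here or in any result that follows.

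Wnt3a arrays read -3.35, -5.39 and -2.72 for SLC10A1 (mean -3.82 ± 1.40), overlapping the untreated ones. The difference of -2.05 was not called (adjusted p 0.135), its slide differences being -3.04, -3.74 and 0.64. It was called without untreated array 3, at -2.84 with an adjusted p of 0.0306, and with the replicate block, at -2.05 with an adjusted p of 0.0415, in a range of 0.0293 to 1 over 19 alternatives. FZD8_CRD + Wnt3a was at the floor on all 3 arrays. Where a group was not measured, the lowest measurable signal of each of its arrays, or the floor if higher, gives a limit only, and SLC10A1 was at least 4.69-fold lower there than with Wnt3a alone (adjusted p 0.0273). This call was lost without Wnt3a array 1 (adjusted p 0.0978), without Wnt3a array 3 (0.125) and without any 1 of the FZD8_CRD + Wnt3a arrays (0.0626, 0.0624 and 0.059), in a range of 0.000598 to 0.191 over 19 alternatives. After control siRNA with Wnt3a, array 1 read -2.97 and the others were not well above background, and control siRNA was not called lower there (adjusted p 0.461). The interaction for control siRNA, which uses the same arrays, was not called (adjusted p 1). No size is given for either.

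After beta-catenin siRNA, SLC10A1 read -2.97, -4.16 and -3.38 (mean -3.51 ± 0.60), above all 3 control siRNA arrays, but the difference of 1.78 was not called (adjusted p 0.182). With Wnt3a as well it read -3.39 and -4.90 on arrays 1 and 3 and was not well above background on array 2. In order of means, the conditions ran from untreated through beta-catenin siRNA, Wnt3a, beta-catenin siRNA + Wnt3a, control siRNA + Wnt3a, control siRNA and FZD8_CRD to FZD8_CRD + Wnt3a, and each overlapped the next. Nearest in pattern over the 24 arrays were FOLH1 (Pearson r 0.922, and 0.98 over the 8 condition means), SLC39A5 (0.920 and 0.965) and NUDT12 (0.913 and 0.936), a description with no test.

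SLCO1B1 and SLCO1B3 carry organic anions such as bilirubin conjugates and statins into the hepatocyte without sodium. SLCO1B1 in untreated cells read -1.85, -3.51 and -4.30 (mean -3.22 ± 1.25). It read -4.86, -4.68 and -4.98 after control siRNA (mean -4.84 ± 0.15). Under FZD8_CRD it read -4.61, -4.81 and -4.44 (mean -4.62 ± 0.18). Untreated array 1 was far above the other two, and the highest arrays of the other groups lay just under untreated array 3. Control siRNA was lower by -1.63 ± 0.39 (adjusted p 0.00506), with slide differences of -3.02, -1.17 and -0.69, and by -0.94 (adjusted p 0.0283, in a range of 0.000196 to 0.15 over 20 alternatives) without untreated array 1. FZD8_CRD was lower by -1.40 (adjusted p 0.00674), with slide differences of -2.77, -1.30 and -0.14, by -1.49 (adjusted p 0.0117) without FZD8_CRD array 3, and by -0.71 (adjusted p 0.0495) without untreated array 1. That last result had adjusted p between 0.000205 and 0.137 over 20 alternatives.

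With Wnt3a in both groups SLCO1B1 was called in neither comparison, the differences being -0.65 for control siRNA (adjusted p 0.357) and -0.20 for FZD8_CRD (adjusted p 0.732). The interactions were 0.98 for control siRNA (adjusted p 1) and 1.20 for FZD8_CRD (adjusted p 0.37), and neither was called. Wnt3a arrays averaged -3.70 ± 0.20, beta-catenin siRNA arrays -3.73 ± 0.36, beta-catenin siRNA + Wnt3a arrays -3.79 ± 0.51, FZD8_CRD + Wnt3a arrays -3.89 ± 0.13 and control siRNA + Wnt3a arrays -4.34 ± 0.20. In the order of means, which ran from untreated through these 5 to FZD8_CRD and control siRNA, only FZD8_CRD + Wnt3a and control siRNA + Wnt3a were neighbours without overlap. All 3 beta-catenin siRNA arrays exceeded all 3 control siRNA arrays, a difference of 1.12 that was not called (adjusted p 0.076). PPP1R1C was nearest in pattern (r 0.900, and 0.974 over condition means).

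SLCO1B3 took a different course, with its lowest means in untreated and beta-catenin siRNA cells. Its untreated arrays read -3.07, -2.88 and -2.98 (mean -2.98 ± 0.09), and its Wnt3a arrays -2.55, -2.21 and -2.65 (mean -2.47 ± 0.23). With FZD8_CRD they read -2.79, -2.54 and -2.58 (mean -2.64 ± 0.13), and with FZD8_CRD + Wnt3a -1.95, -2.14 and -2.41 (mean -2.17 ± 0.23). Wnt3a arrays lay above their controls without overlap in untransfected, control siRNA and FZD8_CRD cells, yet no comparison called the gene. The Wnt3a differences were 0.51 in untransfected cells (adjusted p 0.0943), 0.41 after control siRNA (adjusted p 0.276), 0.31 after beta-catenin siRNA (adjusted p 0.591) and 0.47 with FZD8_CRD (adjusted p 0.116). Within slides all 3 were positive in each of these 4 comparisons. The last was 0.49 (adjusted p 0.0959) without FZD8_CRD array 3.

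With the replicate number as a block in the model, SLCO1B3 was called in 4 comparisons. They were Wnt3a in untransfected cells (adjusted p 0.0218, in a range of 0.0182 to 0.964 over 20 alternatives), Wnt3a with FZD8_CRD (0.0265, in a range of 0.0156 to 1), beta-catenin siRNA with Wnt3a (-0.44, 0.0295 in place of 0.13, in a range of 0.0295 to 0.52) and FZD8_CRD without Wnt3a (0.34, 0.0387 in place of 0.132). This last difference was also called with quantile normalization and with the deposited values (0.53 in each, adjusted p 0.0251 with the latter), so in 3 of 20 alternatives. In a range of 0.0251 to 0.92, it was 0.31 without FZD8_CRD array 3 (adjusted p 0.227) and -0.05 with arrays scaled to spike-in probes. The order of means ran from FZD8_CRD + Wnt3a through control siRNA + Wnt3a, Wnt3a, FZD8_CRD, control siRNA, beta-catenin siRNA + Wnt3a and untreated to beta-catenin siRNA (-3.05 ± 0.37), each overlapping the next. FHL3 (r 0.934, and 0.991 over condition means), TENM2 (0.921 and 0.981) and PLEKHG2 (0.909 and 0.969) were nearest in pattern.

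SLC51A and SLC51B form the basolateral efflux transporter OST, in which both subunits are needed. SLC51A was well above background on 3 of 24 arrays, at -5.38 on untreated array 1, -5.30 on Wnt3a array 1 and -4.98 on beta-catenin siRNA + Wnt3a array 3, and was not tested. SLC51B was the transporter counted as lower after beta-catenin siRNA. After control siRNA it read -2.83, -3.17 and -3.21 (mean -3.07 ± 0.21), and after beta-catenin siRNA -4.71, -4.69 and -4.91 (mean -4.77 ± 0.12). With Wnt3a added it read -3.35, -2.12 and -3.43 after control siRNA (mean -2.97 ± 0.73). After beta-catenin siRNA with Wnt3a, array 1 read -5.53 and arrays 2 and 3 were not well above background, at -6.13 and -5.70 (mean -5.79 ± 0.31). Every beta-catenin siRNA array lay below every control siRNA array, with and without Wnt3a, by more than the spread of either group.

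Beta-catenin siRNA lowered SLC51B by -1.70 ± 0.27 without Wnt3a, 3.25-fold (adjusted p 0.000359), with differences of -1.87, -1.52 and -1.70 within slides. With Wnt3a SLC51B was called lower as well (adjusted p 1.16e-06). The difference was -2.18 on slide 1, the only one measured above background in both groups. Arrays 2 and 3 of the lower group were not well above background, so no fold or mean difference is given. No single array, left out, changed either call, and adjusted p ranged over 19 alternatives from 0.000359 to 0.0546 without Wnt3a and from 6.5e-07 to 0.00837 with it. Wnt3a after beta-catenin siRNA did not give a called difference (adjusted p 0.187), although the groups did not overlap. The Wnt3a response after beta-catenin siRNA minus that after control siRNA was not called (unadjusted p 0.00839, adjusted p 1). Both use the same unmeasured arrays, so no sizes are given.

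In untreated cells SLC51B read -3.36, -2.95 and -3.59 (mean -3.30 ± 0.32), and with FZD8_CRD -4.61, -4.55 and -4.09 (mean -4.42 ± 0.29). FZD8_CRD was lower without overlap, by -1.12 (adjusted p 0.00237), with slide differences of -1.25, -1.60 and -0.50. It was lower by -1.28 (adjusted p 0.00198) without FZD8_CRD array 3. With Wnt3a in both groups the means were -3.97 ± 0.01 with FZD8_CRD and -3.94 ± 0.26 without, and the difference of -0.03 was not called (adjusted p 0.945). The interaction was 1.09 and was not called (adjusted p 0.221), nor was it without FZD8_CRD array 3 (1.25, adjusted p 0.0624). Wnt3a arrays read -3.79, -4.24 and -3.80, all below the untreated ones, a difference of -0.64 that was not called (adjusted p 0.171).

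Control siRNA + Wnt3a exceeded Wnt3a by 0.97 in SLC51B (adjusted p 0.0292), with slide differences of 0.44, 2.11 and 0.37. Array 2 of control siRNA + Wnt3a, at -2.12, stood above the other two, and without it the difference was 0.55 (adjusted p 0.206). The call was also lost without Wnt3a array 1 (1.05, adjusted p 0.0898), array 2 (0.82, 0.0698) or array 3 (1.04, 0.0535), in a range of 0.02 to 0.382 over 19 alternatives. Without Wnt3a, control siRNA did not differ by the test from untreated (0.23, adjusted p 0.623), and the interaction was 0.74 (adjusted p 1). The order of means ran from control siRNA + Wnt3a, control siRNA and untreated, which overlapped, through Wnt3a and FZD8_CRD + Wnt3a, which overlapped, to FZD8_CRD, beta-catenin siRNA and beta-catenin siRNA + Wnt3a, none of these last overlapping its neighbour. SLC16A5 (r 0.878, and 0.919 over condition means), TNFRSF9 (0.875 and 0.923) and IFITM1 (0.872 and 0.904) were nearest in pattern.

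ABCC3, or MRP3, exports glucuronides and bile acids across the basolateral membrane, and its 2 probes gave different results. Probe A_23_P207507, designed on NM_003786 and the brighter of the pair, represented the gene in the counts. It read 5.27, 4.92 and 4.71 in untreated cells (mean 4.97 ± 0.28) and 4.46, 4.36 and 3.73 with FZD8_CRD (mean 4.18 ± 0.40). It read 5.02, 5.00 and 4.93 with Wnt3a (mean 4.98 ± 0.04) and 3.66, 3.60 and 3.83 with FZD8_CRD + Wnt3a (mean 3.69 ± 0.12). FZD8_CRD arrays lay below their references without overlap in both cases, and FZD8_CRD array 3 sat among those that also had Wnt3a. FZD8_CRD was lower by -0.78 without Wnt3a (adjusted p 0.000257), with slide differences of -0.81, -0.56 and -0.98, and by -0.56 without FZD8_CRD array 3 (adjusted p 0.00107). With Wnt3a it was lower by -1.29 (adjusted p 2.89e-06), with slide differences of -1.36, -1.40 and -1.10. Both calls held under each of 20 alternatives, with highest adjusted p of 0.0429 and 0.00273.

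Wnt3a in the presence of FZD8_CRD lowered this ABCC3 probe by -0.49 ± 0.15 (adjusted p 0.0441), with slide differences of -0.81, -0.76 and 0.10, and the arrays overlapped. Without FZD8_CRD array 3 it was lower by -0.72 (adjusted p 0.000231) and the groups no longer overlapped. The call was lost without FZD8_CRD array 1 (-0.35, adjusted p 0.315) or array 2 (-0.40, 0.257), and without FZD8_CRD + Wnt3a array 1 (-0.47, 0.134), array 2 (-0.44, 0.16) or array 3 (-0.56, 0.0587), in a range of 0.000158 to 0.799 over 20 alternatives. In untransfected cells Wnt3a gave 0.02 (adjusted p 0.98). The interaction between these contexts was -0.50 and not called (adjusted p 0.302), but was -0.73 and called (adjusted p 0.00742) without FZD8_CRD array 3. The 4 siRNA conditions lay between 4.51 and 4.87 on every array, with means of 4.77 ± 0.09 for control siRNA + Wnt3a, 4.73 ± 0.06 for control siRNA, 4.66 ± 0.04 for beta-catenin siRNA and 4.64 ± 0.17 for beta-catenin siRNA + Wnt3a. In order of means they followed Wnt3a and untreated and preceded FZD8_CRD and FZD8_CRD + Wnt3a, and every neighbour overlapped except beta-catenin siRNA + Wnt3a and FZD8_CRD. GARNL3 (r 0.972, and 0.987 over condition means), IDUA (0.957 and 0.964) and NRN1L (0.944 and 0.964) were nearest in pattern.

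Probe A_33_P3298024, designed on NM_001144070, read 2.52, 2.47 and 2.00 in untreated cells and 2.38, 2.33 and 2.18 with FZD8_CRD, which overlapped (-0.03, adjusted p 0.843 over 31065 probes). With Wnt3a in both groups FZD8_CRD gave -0.05 (adjusted p 0.76), and Wnt3a with FZD8_CRD gave -0.06 (adjusted p 0.873). After beta-catenin siRNA the probe read 2.70, 2.71 and 2.45, against 2.07, 2.00 and 1.86 after control siRNA. It was higher by 0.65 (adjusted p 0.00139), where 4.12% of probes were higher, with slide differences of 0.64, 0.71 and 0.60. This was called in 11 of 14 alternatives and lost with spike-in scaling (adjusted p 0.405, the highest of a range from 4.44e-06). With Wnt3a it was higher by 0.49 (adjusted p 0.0109), where 3.86% were higher, with slide differences of 0.53, 0.45 and 0.48. That call was lost without beta-catenin siRNA + Wnt3a array 1 (0.42, adjusted p 0.0547) or control siRNA + Wnt3a array 3 (0.44, 0.0517), in a range of 6.2e-05 to 0.775 over 14 alternatives.

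The other ABCC3 probe, A_23_P207507, gave -0.07 and -0.13 in these siRNA comparisons, with adjusted p of 0.878 and 0.735. Control siRNA lowered A_33_P3298024 by -0.36 (adjusted p 0.0367), where 9.55% of probes were lower, with overlapping arrays. This was lost without untreated array 1 (-0.26, adjusted p 0.202) or array 2 (-0.29, 0.149) and without control siRNA array 2 (-0.37, 0.0725) or array 3 (-0.30, 0.141), in a range of 0.000581 to 0.351 over 14 alternatives. The difference between the probes was not tested, and which transcripts each probe measures was not analysed here.

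**Figure D3:**
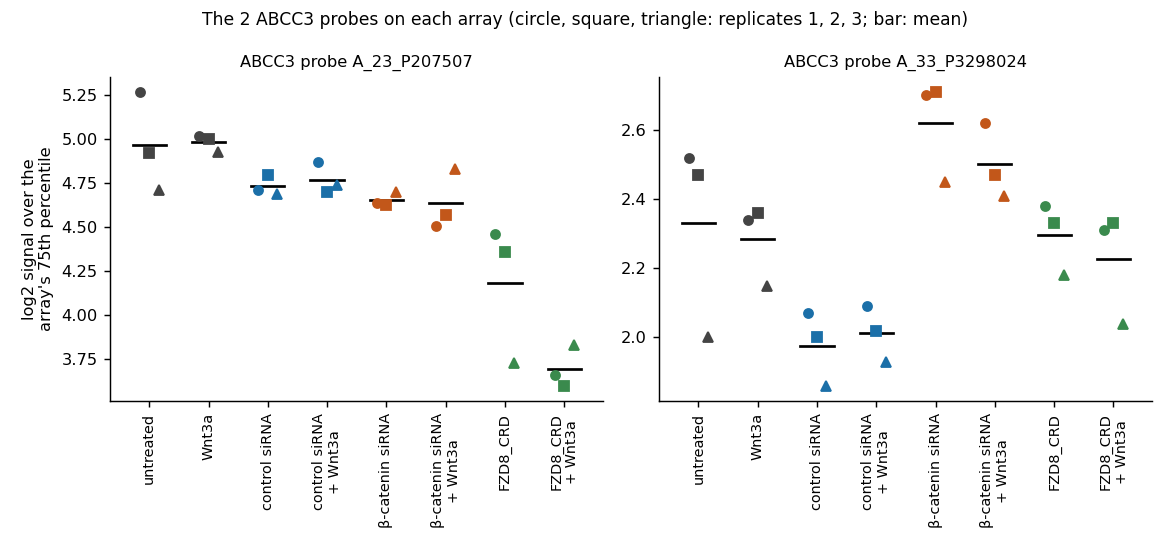
Level of the 2 ABCC3 probes on each array, as log2 of signal over the array's 75th percentile; circles, squares and triangles are replicates 1, 2 and 3, bars are means of 3, and the panels have separate scales. Probe A_23_P207507 was lowest with FZD8_CRD + Wnt3a (mean 3.69), and probe A_33_P3298024 was highest after beta-catenin siRNA (mean 2.62).

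ABCB11, the bile salt export pump, secretes bile acids into the canaliculus. Its probe was well above background on 0 of 24 arrays, so no level or difference can be given for it. ABCB4, also called MDR3, moves phosphatidylcholine into bile. It read 1.91, 1.46 and 1.04 in untreated cells (mean 1.47 ± 0.44), 0.41, 0.32 and 0.41 after control siRNA (mean 0.38 ± 0.05) and 0.13, 0.13 and 0.16 with FZD8_CRD (mean 0.14 ± 0.02). All 3 untreated arrays were higher than all others in these groups, and their own spread was the widest. FZD8_CRD was lower by -1.33, 2.51-fold (adjusted p 1.02e-05), with slide differences of -1.78, -1.33 and -0.87, and by -1.34 without FZD8_CRD array 3 (adjusted p 5.47e-05). Control siRNA was lower by -1.09 ± 0.18 (adjusted p 0.000409), with slide differences of -1.50, -1.14 and -0.62, a call kept in 19 of 20 alternatives and lost without replicate 1 of every condition (-0.88, adjusted p 0.0627, in a range from 5.35e-05).

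With Wnt3a, ABCB4 read 1.31, 0.58 and 1.33 in untransfected cells (mean 1.08 ± 0.43) and 0.21, 0.26 and 0.23 with FZD8_CRD (mean 0.23 ± 0.03). After control siRNA with Wnt3a it read 0.39, 0.07 and 0.31 (mean 0.26 ± 0.16). Wnt3a array 2 was the nearest to both lower groups but did not reach them. FZD8_CRD was lower by -0.84 (adjusted p 0.00115), with slide differences of -1.10, -0.32 and -1.10, and both FZD8_CRD calls held under each of 20 alternatives, with highest adjusted p of 0.00626 without Wnt3a and 0.0451 with it. Control siRNA was lower by -0.82 (adjusted p 0.0101), with slide differences of -0.93, -0.51 and -1.02. This call was lost without Wnt3a array 1 (-0.70, adjusted p 0.0838) or control siRNA + Wnt3a array 2 (-0.73, 0.0716), in a range of 0.000292 to 0.399 over 20 alternatives. No Wnt3a comparison called ABCB4, the largest change being -0.39 in untransfected cells (adjusted p 0.217), and neither did the comparisons of beta-catenin siRNA (0.28 and 0.20, adjusted p 0.415 and 0.633).

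The ABCB4 means of beta-catenin siRNA and beta-catenin siRNA + Wnt3a were 0.66 ± 0.14 and 0.46 ± 0.18. In order, the conditions ran from untreated through Wnt3a, beta-catenin siRNA, beta-catenin siRNA + Wnt3a, control siRNA, control siRNA + Wnt3a and FZD8_CRD + Wnt3a to FZD8_CRD, with overlap between neighbours except between the last pair. ASGR2 (r 0.980, and 0.989 over condition means), SLC28A1 (0.978 and 0.992) and SLC22A9 (0.971 and 0.979) were nearest in pattern.

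ABCC2, or MRP2, secretes conjugated bilirubin and drug conjugates into bile and had the smallest range over the 24 arrays of any tested transporter, 0.66. It read 3.57, 3.56 and 3.34 in untreated cells (mean 3.49 ± 0.13) and 3.00, 2.95 and 2.96 with FZD8_CRD (mean 2.97 ± 0.03). It read 3.48, 3.25 and 3.41 with Wnt3a (mean 3.38 ± 0.12) and 2.92, 2.91 and 2.92 with FZD8_CRD + Wnt3a (mean 2.92 ± 0.01). The FZD8_CRD arrays were all below their references, and below every array of the siRNA conditions. FZD8_CRD was lower by -0.52, 1.43-fold (adjusted p 6.95e-06), with slide differences of -0.57, -0.60 and -0.38, and by -0.51 without FZD8_CRD array 3 (adjusted p 3.68e-05). With Wnt3a it was lower by -0.46 (adjusted p 3.22e-05), with slide differences of -0.56, -0.34 and -0.49. No single array changed these calls, but scaling to spike-in probes ended the one with Wnt3a (-0.55, adjusted p 0.181, the highest of a range from 8.26e-06), and so did the fold limit of 1.5 or 0.7 at an unadjusted p of 0.01.

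Control siRNA without Wnt3a lowered ABCC2 by -0.21 ± 0.07 (adjusted p 0.0327), from the untreated arrays to 3.30, 3.32 and 3.23, with slide differences of -0.27, -0.24 and -0.12. The call was lost without untreated array 1 (-0.17, adjusted p 0.157) or array 2 (-0.18, 0.121) and without control siRNA array 1 (-0.22, 0.0688), array 2 (-0.23, 0.0513) or array 3 (-0.18, 0.12), in a range of 0.00461 to 0.358 over 20 alternatives. With Wnt3a control siRNA lowered it by -0.26 (adjusted p 0.0213), to 3.15, 3.03 and 3.17, with slide differences of -0.33, -0.22 and -0.24. That call was lost without Wnt3a array 1 (-0.21, adjusted p 0.154) or array 3 (-0.25, 0.0661) and without control siRNA + Wnt3a array 2 (-0.22, 0.134), and the difference was 0.01 with arrays scaled to spike-in probes, in a range of 0.00295 to 0.987 over 20 alternatives. Beta-catenin siRNA left ABCC2 uncalled without Wnt3a (-0.06, adjusted p 0.732) and with it (0.10, adjusted p 0.464). The order of means ran from untreated through Wnt3a, control siRNA, beta-catenin siRNA and beta-catenin siRNA + Wnt3a, each overlapping the next, to control siRNA + Wnt3a, FZD8_CRD and FZD8_CRD + Wnt3a, none of which overlapped its neighbours. ADSS1 (r 0.966, and 0.983 over condition means), SLC5A9 (0.964 and 0.982) and INSR (0.957 and 0.969) were nearest in pattern.

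Among themselves, over the 24 arrays, SLC10A1 and ABCB4 correlated at r 0.87, ABCB4 and ABCC2 at 0.87 and ABCC2 and ABCC3 at 0.84. SLC51B correlated with no other transporter beyond 0.26, and SLCO1B3 was negatively correlated with SLC10A1 (-0.54), ABCC2 (-0.53), ABCB4 (-0.50), ABCC3 (-0.46) and SLCO1B1 (-0.30). These values describe arrays that share conditions and slides, and carry no test.

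Hepatocyte markers varied between the same groups. The list held 10 genes, ALB, TTR, APOA1 and CYP3A4 among them, of which 9 were tested and 0 were below background on every array, and ALB had the highest mean signal over the 24 arrays, SERPINA1 leading on the 3 arrays of control siRNA + Wnt3a. Their summed signal, in multiples of the array's 75th percentile, was 1520, 1130 and 794 on the untreated arrays and 923, 402 and 933 on the Wnt3a arrays. It was 415, 382 and 398 after control siRNA, and 272, 195 and 266 after control siRNA with Wnt3a. The untreated and control siRNA sums did not overlap, and untreated array 1, highest for SLC10A1, SLCO1B1, ABCB4, ABCC2 and ABCC3, was also highest here. After beta-catenin siRNA the sums were 635, 481 and 610, and with Wnt3a 287, 395 and 504. With FZD8_CRD they were 374, 253 and 372, and with FZD8_CRD + Wnt3a 397, 388 and 383.

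Called hepatocyte markers numbered 9 lower and 0 higher for control siRNA without Wnt3a (median -1.90), beside 10.1% and 12.3% of all genes, and 6 lower and 0 higher with it (median -1.46), beside 3.59% and 5.44%. For FZD8_CRD they numbered 9 lower and 0 higher without Wnt3a (median -2.41), beside 22.2% and 19.7%, and 6 lower and 0 higher with it (median -1.48), beside 18.9% and 18.2%. The first of these was again 9 lower without FZD8_CRD array 3 (median -2.84). For beta-catenin siRNA 0 were called without Wnt3a by limma, with 2 at an unadjusted p under 0.05 (median 0.65), beside 6.17% lower and 4.4% higher, and 2 were higher with it (median 0.68), beside 4.08%. Wnt3a called 0 in untransfected cells (median -1.09), 0 after control siRNA (median -0.88) and 0 after beta-catenin siRNA (median -0.77) by limma, with 3, 3 and 2 at an unadjusted p under 0.05. With FZD8_CRD it called 2 higher and 1 lower (median 0.07), beside 4.36% and 3.94%, and 3 higher and 2 lower without FZD8_CRD array 3 (median 0.48), beside 8.69% and 11.3%. The median over all genes lay between -0.09 and 0.03 in each of the 10 comparisons. With the replicate block 1 marker was lower for Wnt3a after control siRNA, where 2.17% of all genes were, and 1 higher for beta-catenin siRNA without Wnt3a, where 6.74% were. The FZD8_CRD interaction called 0 by limma, beside 0.073% of all genes, with 5 at an unadjusted p under 0.05. Without FZD8_CRD array 3 it called 3 positive and 1 negative, beside 3.24% and 4.52%. The part of hepatocyte marker levels in the transporters' differences was not tested.

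**Figure D4:**
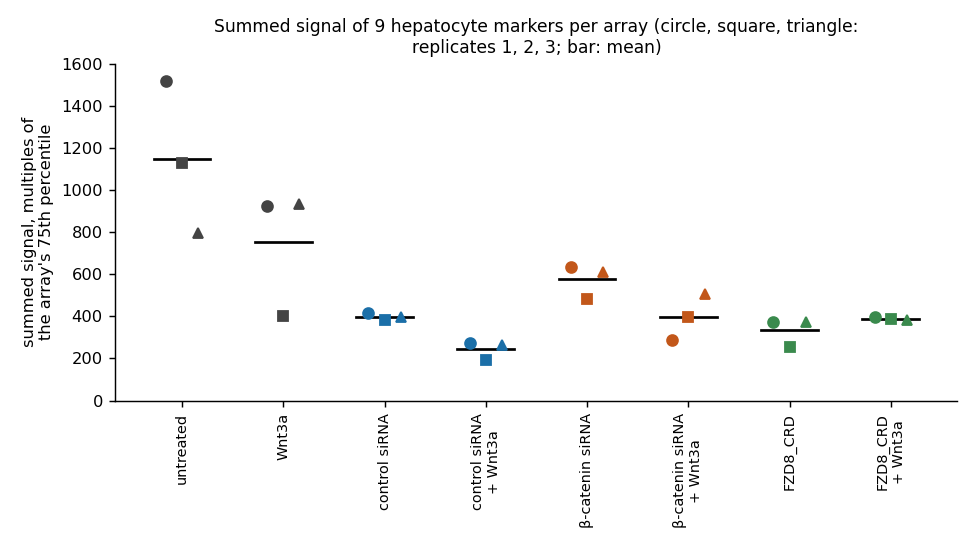
Summed signal of the 9 tested hepatocyte markers on each array, in multiples of the array's 75th percentile; circles, squares and triangles are replicates 1, 2 and 3, and bars are means of 3. Untreated arrays reached from 794 to 1520, and those after control siRNA with Wnt3a from 195 to 272.

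The other marker lists were read in the same way. Of 8 mesenchymal markers (COL1A1, COL1A2, COL3A1, ACTA2, VIM, FN1, TAGLN and CDH2), all 8 tested, CDH2 had the highest mean signal over the 24 arrays, although ACTA2 led on Wnt3a arrays 2 and 3, the 3 arrays of control siRNA + Wnt3a and FZD8_CRD + Wnt3a array 3. The sums were 30.5, 28.6 and 26.2 in untreated cells and 36.5, 43.2 and 33.1 with Wnt3a. They were 27.4, 28 and 36.3 with FZD8_CRD and 48.5, 48.7 and 42 with FZD8_CRD + Wnt3a, so that FZD8_CRD array 3 was again the one nearest the latter group. After control siRNA the sums were 26.7, 27.5 and 24.4, and with Wnt3a 34.4, 34.3 and 32.6. After beta-catenin siRNA they were 26.9, 27.5 and 25.8, and with Wnt3a 31, 29.7 and 28.7. Wnt3a called 5 mesenchymal markers higher in untransfected cells (2.99% of all genes), 4 after control siRNA (1.09%), 0 after beta-catenin siRNA by limma (0.0365%, with 1 marker at an unadjusted p under 0.05) and 6 with FZD8_CRD (4.36%), with 0 lower in each. Their medians were 0.67, 0.88, 0.25 and 0.83. Beta-catenin siRNA called 1 higher and 2 lower without Wnt3a (median -0.34), beside 4.4% and 6.17% of all genes. With Wnt3a it called 1 higher and 6 lower (median -1.12), beside 4.08% and 6.5%. FZD8_CRD called 2 higher and 3 lower without Wnt3a (median 0.08), beside 19.7% and 22.2%. With Wnt3a it called 4 higher and 2 lower (median 0.29), beside 18.2% and 18.9%. Without FZD8_CRD array 3, Wnt3a with FZD8_CRD called 6 higher and 0 lower (median 1.08), beside 8.69% and 11.3% of all genes. FZD8_CRD without Wnt3a then called 2 higher and 3 lower (median -0.26), beside 20.2% and 20.4%. The FZD8_CRD interaction called 3 positive and 0 negative without this array, beside 3.24% and 4.52%. With it the interaction called 0 by limma, beside 0.073%, and 2 had an unadjusted p under 0.05. Control siRNA called 1 higher and 2 lower without Wnt3a (median -0.35), beside 12.3% and 10.1% of all genes. With Wnt3a it called 0 higher and 1 lower (median -0.19), beside 5.44% and 3.59%.

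Of 8 biliary and progenitor markers, among them KRT7, KRT19, EPCAM and SOX9, 7 were tested and KRT19 had the highest mean signal. Their sum ran from 304 to 372 on the arrays of the untreated, Wnt3a and siRNA conditions, was 349, 361 and 446 with FZD8_CRD, and 453, 456 and 422 with FZD8_CRD + Wnt3a. FZD8_CRD called 1 higher and 3 lower without Wnt3a (median -0.26), beside 19.7% and 22.2% of all genes, and 2 higher and 3 lower with it (median -0.15), beside 18.2% and 18.9%. Without FZD8_CRD array 3 the former was 0 higher and 1 lower (median -0.32), beside 20.2% and 20.4% of all genes. Wnt3a with FZD8_CRD then called 2 higher and 1 lower, beside 8.69% and 11.3%. With that array it had called 0 by limma, beside 4.36% and 3.94%, with 1 at an unadjusted p under 0.05. With all arrays, at most 3 of the 7 were called in any other pairwise comparison, where between 0.00406% and 12.3% of all genes were called in 1 direction. The 6 markers of blood, endothelial and stellate cells (PTPRC, CD68, PECAM1, CDH5, LRAT and DES) were led by CD68 in mean signal and summed to between 1.80 and 5.01. On the FZD8_CRD arrays they summed to 1.97, 1.80 and 3.40, against 5.01, 4.22 and 3.39 on the untreated arrays. After beta-catenin siRNA they summed to 2.68, 2.34 and 2.51, against 3.63, 3.38 and 3.40 after control siRNA, and 2 were lower (6.17% of all genes). At most 2 were called in any pairwise comparison, where between 0.00406% and 22.2% of all genes were called in 1 direction. Without FZD8_CRD array 3, Wnt3a with FZD8_CRD called 1 higher and 1 lower (8.69% and 11.3%), FZD8_CRD without Wnt3a 1 lower (20.4%) and the FZD8_CRD interaction 1 positive (3.24%). No list had a marker that was below background on all 24 arrays, and the part of these markers in the transporters' differences was not tested.

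Genes that work with the transporters were read from 3 lists. Beside the counts that follow, all genes called lower and higher were 22.2% and 19.7% for FZD8_CRD without Wnt3a and 18.9% and 18.2% with it, and 10.1% and 12.3% for control siRNA without Wnt3a and 3.59% and 5.44% with it. They were 6.17% and 4.4% for beta-catenin siRNA without Wnt3a and 6.5% and 4.08% with it. For Wnt3a they were 2.61% and 2.99% in untransfected cells, 1.02% and 1.09% after control siRNA, 0.00406% and 0.0365% after beta-catenin siRNA, and 3.94% and 4.36% with FZD8_CRD, and the medians of all genes lay between -0.09 and 0.03.

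Of 17 genes of bile acid synthesis and conjugation 15 were tested, and FZD8_CRD had 10 lower and 0 higher without Wnt3a (median -0.91) and 8 lower and 1 higher with it (median -0.67). Control siRNA had 8 lower and 1 higher without Wnt3a (median -0.50) and 2 lower and 0 higher with it (median -0.25). Beta-catenin siRNA had 2 lower and 1 higher both without and with Wnt3a (medians 0.04 and 0.03). Wnt3a had 2 lower and 1 higher in untransfected cells (median -0.44), 1 lower and 0 higher after control siRNA (median -0.05), 0 after beta-catenin siRNA by limma (median -0.33, 6 at an unadjusted p under 0.05) and 2 in each direction with FZD8_CRD. With the replicate block, Wnt3a in untransfected cells had 4 lower and 1 higher, control siRNA with Wnt3a 4 lower, and beta-catenin siRNA 3 lower and 2 higher both without and with Wnt3a. All genes called lower and higher with the block were 5.36% and 6.09%, 6.03% and 9.23%, 9.87% and 6.74%, and 9.52% and 6.09% in these 4 comparisons.

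Of 16 genes of bile acid and xenobiotic sensing 15 were tested, and FZD8_CRD had 10 lower and 1 higher without Wnt3a (median -1.02) and 6 lower and 1 higher with it (median -0.39). Control siRNA had 7 lower and 0 higher without Wnt3a (median -0.52) and 3 lower and 0 higher with it (median -0.42), and beta-catenin siRNA had 2 higher and 0 lower in each case (medians 0.20 and 0.26). Wnt3a had 3 lower and 0 higher in untransfected cells (median -0.43), 0 after control siRNA and 0 after beta-catenin siRNA by limma (medians -0.24 and -0.21, 4 at an unadjusted p under 0.05 in each), and 1 in each direction with FZD8_CRD (median -0.04). With the replicate block, Wnt3a in untransfected cells had 5 lower and 1 higher, beside 5.36% and 6.09% of all genes with the block, and beta-catenin siRNA with Wnt3a 4 higher, beside 6.09%.

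Of 21 other hepatobiliary and drug transporters 17 were tested, and FZD8_CRD had 9 lower and 6 higher without Wnt3a (median -0.97) and 7 lower and 1 higher with it (median -0.46). Control siRNA had 9 lower and 3 higher without Wnt3a (median -0.52) and 3 lower and 0 higher with it (median -0.43). Beta-catenin siRNA had 3 lower and 1 higher without Wnt3a and 1 lower and 2 higher with it (median 0.22 in both). Wnt3a had 0 called in untransfected cells, after control siRNA or after beta-catenin siRNA by limma (medians -0.25, -0.16 and -0.17, with 7, 3 and 1 at an unadjusted p under 0.05), and 1 lower with FZD8_CRD (median -0.21). With the replicate block, Wnt3a had 4 lower and 1 higher in untransfected cells (5.36% and 6.09% of all genes with the block), 1 lower after control siRNA (2.17%) and 4 lower with FZD8_CRD (6.52%). Control siRNA with Wnt3a then had 6 lower (6.03%) and beta-catenin siRNA with Wnt3a 2 lower and 3 higher (9.52% and 6.09%).

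The 3 interactions called 0 genes of these lists by limma, where that of FZD8_CRD had 2, 8 and 8 at an unadjusted p under 0.05 in synthesis, sensing and other transporters. With the replicate block it called 1 negative among the other transporters, beside 0.398% of all genes, and without FZD8_CRD array 3 it called 1 positive and 1 negative, 2 positive and 1 negative, and 1 positive and 3 negative, beside 3.24% and 4.52% of all genes. For the interaction of beta-catenin siRNA the unadjusted counts were 1, 0 and 0, and for that of control siRNA 0, 2 and 1. Without FZD8_CRD array 3, FZD8_CRD without Wnt3a had 10 lower and 0 higher in synthesis, 10 lower and 1 higher in sensing and 8 lower and 6 higher among the other transporters, beside 20.4% and 20.2% of all genes. In the same order, Wnt3a with FZD8_CRD had 3 lower and 2 higher, 2 lower and 3 higher, and 4 lower and 1 higher, beside 11.3% and 8.69%.

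From each list, the called genes with the largest changes were taken, up to 4 in each of the 4 Wnt3a, 2 beta-catenin siRNA and 2 FZD8_CRD comparisons, which gave 55 results. Named here are the 16 of them that were called under every alternative that tested the gene, including each array left out, of which 0 were among the 14 Wnt3a results. No size is given where only some arrays of the lower group were measured. FZD8_CRD without Wnt3a lowered the sterol hydroxylase CYP8B1 (adjusted p 1.52e-05, 2 of 3 FZD8_CRD arrays measured) and the conjugating enzyme BAAT by -3.06 (adjusted p 2.31e-05). It lowered the bile acid receptor NR1H4 by -3.61 (adjusted p 7.06e-06), the FGF19 co-receptor KLB (adjusted p 2.25e-05, 1 of 3 arrays measured) and the hepatocyte factor HNF4A by -1.70 (adjusted p 0.000649). Of the transporters it lowered the sterol exporter subunit ABCG8 (adjusted p 3.41e-06, 1 of 3 arrays measured) and the organic anion carrier SLCO2B1 by -3.08 (adjusted p 1.69e-05), and SLC22A9 was at least 8.43-fold lower (adjusted p 4.11e-05). All 3 slides had the direction of each of these 8 differences. Without FZD8_CRD array 3 those of BAAT, NR1H4, HNF4A and SLCO2B1 were -3.16, -3.68, -1.92 and -3.06. CYP8B1, KLB, ABCG8 and SLC22A9 were still called lower then (adjusted p 7.59e-05, 0.000142, 2.86e-05 and 0.000216).

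With Wnt3a, FZD8_CRD lowered CYP8B1 (adjusted p 0.00097, 1 of 3 arrays measured, so no size is given). It lowered the sterol hydroxylase CYP27A1 by -1.25 (adjusted p 1.45e-05), NR1H4 by -2.70 (adjusted p 0.000189), the hepatocyte factor CEBPA by -1.09 (adjusted p 0.000225) and SLCO2B1 by -2.15 (adjusted p 0.000737). ABCG8 was at least 18.9-fold lower (adjusted p 9.66e-05), and each of these differences had its direction on 3 of 3 slides. Beta-catenin siRNA with Wnt3a lowered the acyl-CoA synthetase SLC27A2 by -1.41 (adjusted p 1.11e-07) and the basolateral exporter ABCC4 by -0.88 (adjusted p 9.16e-05), both on 3 of 3 slides. Without Wnt3a these were lower by -0.57 (adjusted p 0.00253) and -0.98 (adjusted p 5.27e-05), and scaling to spike-in probes ended both calls, with adjusted p of 0.872 and 0.152, the highest of their ranges from 0.00161 and 3.24e-05. Over all alternatives the differences stayed between -0.63 and -0.47 for SLC27A2 and between -0.99 and -0.69 for ABCC4. All 16 results were lower, and each of the 55 that was higher was lost under some alternative. Of the genes named, CYP8B1 was called higher after beta-catenin siRNA without Wnt3a (2.37, adjusted p 0.0224) and with it (adjusted p 0.0242). ABCG8 was called higher there with Wnt3a (adjusted p 0.0308). SLC27A2 was higher with Wnt3a in untransfected cells (0.59, adjusted p 0.00677) and beside FZD8_CRD (0.55, adjusted p 0.0059, and 0.63 without FZD8_CRD array 3).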

How the data were processed

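RNA of HepaRG cells in 8 conditions with 3 replicates each was hybridised to 24 Agilent one-colour arrays of 62976 spots. The deposited scanner files hold intensity values that the authors made with Agilent Feature Extraction (10.7.3.1 by the submitters' processing notes), with local background subtracted and the signal detrended within each array. The deposited value table holds log2 values that the authors scaled to each array's 75th percentile and that are centred on each probe's median, for 25443 probes. It was used as an alternative and to check the order of columns, where 24 of 24 columns correlated best with their own array (r 0.926 to 0.992).

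Spots that the scanner software marked as outliers (9048) were left out, 986 probes with several spots were averaged, and 41 values were missing. The processed signal was divided by the array's 75th percentile, floored at the median over arrays of the lowest signal well above background, and put on the log2 scale. Of 50683 probes 28174 had a symbol through RefSeq, 31065 were kept, and a gene was represented by its kept probe with the highest mean, which gave 24647 genes (16000 with a symbol). Median SD within a condition was 0.120 to 0.212 (log2), and the highest correlation between replicates was 0.996.

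limma 3.58.1 in R 4.3.3 fitted one mean per condition with moderated variances that follow the mean signal, and 13 comparisons (10 pairwise, 3 interactions) were taken from that fit. ABCC3's probes were also tested over all 31065 probes. Python 3.11.15, numpy 2.4.6, pandas 2.3.3 and matplotlib 3.10.9 did the rest. The deviations of each array from its condition's means were correlated between arrays of different conditions. The mean r was 0.385 for arrays of the same replicate number, over 0.1 in 82 of 84 pairs, and -0.191 for others. Centring each condition on its own mean ties the second value to the first. Replicates were therefore paired by slide in an alternative, while the main test left them unpaired.

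The alternatives were quantile normalization, scaling to spike-in probes (7 of 10 used), normexp background correction (offset 50), no filter, a filter on all 24 arrays, a floor of 1 intensity unit, the mean of a gene's probes, the replicate as a block, the compared conditions alone, the deposited values, the thresholds of the study's paper (unadjusted p under 0.01, fold over 1.5 or under 0.7), and each replicate and each array left out. The comparisons, alternatives and rule for naming genes were set before the data files were examined, while the transporters and gene lists were chosen with earlier results of these data known. The rule named the 9 transporters, CTNNB1, AXIN2, NKD1, RNF43, ZNRF3 and LGR5 as checks of the labels, up to 4 called genes of each list with the largest change in the Wnt3a, beta-catenin siRNA and FZD8_CRD comparisons, and the 3 genes nearest in pattern to each transporter, of which 1 is given for SLCO1B1. Of the list genes, only those called under every alternative are named, a narrowing made after the values were seen.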

Additional observations from a re-analysis of the deposited data

Results flagged for a closer look

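The Wnt3a response of RNF43 differed between siRNAs. It was 1.02 after control siRNA and -0.21 after beta-catenin siRNA, and the difference of -1.23 passed the test (adjusted p 0.00129), with the same sign on 3 of 3 slides. It was called in 23 of 26 alternatives (adjusted p 0.000319 to 0.736) and lost with spike-in scaling (-1.53), without replicate 1 (-1.15) and without replicate 2 (-1.37).

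The slide differences of ABCB4 between Wnt3a and its absence had opposite signs in some contexts, although no comparison called it (adjusted p 0.922 after control siRNA, 0.81 after beta-catenin siRNA and 0.882 with FZD8_CRD). After control siRNA the slide differences were -0.02, -0.25 and -0.10, while with FZD8_CRD they were 0.09, 0.13 and 0.06, so that the means of the former and the latter were apart by -0.22. After beta-catenin siRNA the slide differences were -0.46, -0.10 and -0.05, which put that mean apart from the one with FZD8_CRD by -0.30. In untransfected cells the slide differences were -0.59, -0.88 and 0.29, with no single direction. These 2 differences between contexts were not tested.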

How the results depend on the processing

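The counts of transporters called for FZD8_CRD, without and with Wnt3a, stayed within 1.5 times the 6 and 4 reported under every alternative run. Over all 13 counts, 238 alternative values stayed within that limit and 40 did not. For single genes, 1603 kept their direction and side of the threshold, 379 lost the call, 11 gained it and 3 changed sign. The single-gene results followed were those called in the main fit or, for the transporters, with the replicate block. Other uncalled results were not followed, so the 11 gains do not measure how stable those are.

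Called under every alternative were ABCB4 in both FZD8_CRD comparisons, ABCC3 in both by probe A_23_P207507 (its other probe was not called in either), ABCC2 and SLC10A1 for FZD8_CRD without Wnt3a, and SLC51B for beta-catenin siRNA with Wnt3a. This last difference ran from -3.14 to -0.96 and rests on arrays not well above background, so its size is not exact. SLC51B for beta-catenin siRNA without Wnt3a was called in 18 of 19 (-1.79 to -0.86) and for FZD8_CRD without Wnt3a in 18 of 19 (-1.51 to -0.42). These 2 were lost without replicate 1. For control siRNA without Wnt3a, SLC10A1 was called in 17 of 19, SLCO1B1 in 17 of 20 and ABCB4 in 19 of 20, and SLCO1B1 for FZD8_CRD without Wnt3a in 17 of 20.

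The count for Wnt3a in untransfected cells, 0 by limma with 4 at an unadjusted p under 0.05, was 2 with the replicate block, 1 in each direction (6.09% of all genes higher, 5.36% lower). With replicates or arrays left out it ran from 0 to 3 in either direction, beside 0.0243% to 12.4% of all genes higher and 0% to 13.3% lower. The count for Wnt3a with FZD8_CRD, 1, was 0 with spike-in scaling (0.657% higher, 0.3% lower), deposited values (4.91% and 4.3%), no filter (1.92% and 1.47%), the mean of probes (4.44% and 3.81%), the compared conditions alone (0% and 0%) and the paper's thresholds (2.89% and 2.84%). It was 2 with the block, 1 in each direction (6.86% and 6.52%). With replicates or arrays left out it was 0 to 2 (0% to 10.1% higher, 0% to 11.5% lower). The count for Wnt3a after beta-catenin siRNA, 0 by limma with 1 at an unadjusted p under 0.05, was 1 with the paper's thresholds (0.45% and 0.824%).

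The 4 for control siRNA without Wnt3a was 2 with the compared conditions alone (8.75% of all genes higher, 6.28% lower). With replicates or arrays left out it was 0 to 5 (0.6% to 14.5% higher, 0.353% to 13.4% lower). The 3 for control siRNA with Wnt3a was 0 with spike-in scaling (0.45% and 0.422%), 1 with normexp (4.39% and 2.59%) and 0 with the compared conditions alone (0% and 0.00406%). With replicates or arrays left out it was 0 to 3 (0.00406% to 9.79% higher, 0% to 6.63% lower). The 1 for beta-catenin siRNA without Wnt3a was 3, in either direction, with the compared conditions alone (7.83% and 9.7%). With the paper's thresholds it was 2, SLC51B lower and SLCO1B1 higher (1.89% and 3.77%). With replicates left out it was 0 to 1 (0.633% to 3.96% higher, 1.29% to 5.68% lower). It was 0 with the filter on all 24 arrays, as was the 1 with Wnt3a, because SLC51B was removed by that filter; the latter was 2 with the block (6.09% and 9.52%). The interaction of beta-catenin siRNA, 0 by limma, was 1 with the paper's thresholds (0.101% and 0.467%). That of FZD8_CRD, 0 by limma, ran from 0 to 1 with replicates or arrays left out (0% to 6.27% positive, 0% to 5.84% negative). Except for the filter, the cause was not tested.

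With spike-in scaling, control siRNA without Wnt3a had 0.503% of all genes higher and 6.03% lower, in place of 12.3% and 10.1%. The median change of all genes under this scaling lay between -0.46 and 0.56 in the 13 comparisons. Under it SLCO1B3 for FZD8_CRD without Wnt3a was -0.05 in place of 0.34, ABCC2 for control siRNA with Wnt3a 0.01 in place of -0.26 and AXIN2 for Wnt3a in untransfected cells -0.03 in place of 0.37. The block changed 5 calls among the transporters, all gained: SLC10A1 for Wnt3a in untransfected cells and SLCO1B3 in 4 comparisons.

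The filter on all 24 arrays gave no value for SLC10A1 and SLC51B. With a whole replicate left out, each condition kept 2 arrays. Signal over background limits SLC10A1, SLC51A, SLC51B and ABCB11: changes of a gene near the floor are compressed, and none can be seen below it. With 3 arrays per condition, a difference that was not called is not shown to be absent.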
